A study of Mus musculus with 15 samples.

Results

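The open chromatin around 10 genes for colony stimulating factors and inflammatory cytokines is described here, namely Csf1, Csf2, Csf3, Il6, Lif, Il11, Il33, Il1a, Ccl2 and Ccl7. Their regions are the merged ATAC-seq peaks that overlap a gene body or lie within 20 kb of one, and there were 49 such peaks of 67945 in the whole table. In ATAC-seq a transposase cuts accessible DNA and tags it for sequencing, so a region with more reads was more accessible. The libraries came from pancreatic tumour cell clones of mouse that were grown under the skin of untreated C57BL/6 mice, and per clone 50000 tumour cells were sorted 3 weeks after implantation. The labels call 6 of the clones T cell high (2838c3, 6421c2, 6499c4, 6555c3, 6620c1 and 7160c2) and 7 T cell low (6694c2, 6556c3, 6499c3, 6422c1, 6419c5, 6419c1 and 2699c4), and each library stands for 1 clone. The 15 listed samples also hold 2 clones called T cell intermediate, not analysed here. The comparison asks whether chromatin at these genes differed between clones whose tumours hold many and few T cells. The labels give no driver mutation or sorting gate, and they do not say whether the tumours of a clone were pooled.

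These genes encode secreted signals through which tumour cells can act on immune cells. Csf1 (M-CSF), Csf2 (GM-CSF) and Csf3 (G-CSF) drive the growth and survival of macrophages, of granulocytes and macrophages, and of neutrophils. Il6, Lif and Il11 belong to a family that signals through the shared receptor chain gp130 and the transcription factor STAT3. Il33 and Il1a are IL-1 family alarmins that act when released from damaged or stressed cells, and Ccl2 and Ccl7 are chemokines that draw monocytes through the receptor CCR2. In pancreatic cancer such factors are known for recruiting myeloid cells, and many of their genes are textbook targets of NF-kB, AP-1 and C/EBP factors.

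The DNA just upstream of the start sites is shown for 5 of the genes, each with a peak over all or part of the stretch, whose levels are described below. Il33, whose windows also lay under peaks, is not printed. The sequences are RefSeq promoters of GRCm38.p6, the assembly behind mm10, and run 5′ to 3′ over the 250 bases before the start site. Capitals mark matches on either strand to AP-1 (TGANTCA), C/EBP (TTGCNNAA), the NF-kB consensus, a TATA box (TATAAA), a short CRE motif (TGACG) or an ETS motif (CCGGAAG). The windows are chr5:30012864-30013113 on the plus strand for Il6, chr3:107760470-107760719 on the minus strand for Csf1, chr11:54249900-54250149 on the minus strand for Csf2, chr2:129309973-129310222 on the minus strand for Il1a and chr11:4257318-4257567 on the plus strand for Lif.
Il6: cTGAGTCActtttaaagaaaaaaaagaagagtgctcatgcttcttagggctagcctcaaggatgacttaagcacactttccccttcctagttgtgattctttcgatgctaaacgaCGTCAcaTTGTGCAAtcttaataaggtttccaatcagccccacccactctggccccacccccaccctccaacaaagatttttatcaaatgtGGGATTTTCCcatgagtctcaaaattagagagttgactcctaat
Csf1: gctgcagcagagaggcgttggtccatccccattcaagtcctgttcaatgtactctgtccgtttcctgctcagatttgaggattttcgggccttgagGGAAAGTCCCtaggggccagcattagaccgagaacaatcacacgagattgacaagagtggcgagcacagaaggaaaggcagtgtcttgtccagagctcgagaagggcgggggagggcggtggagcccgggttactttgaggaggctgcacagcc
Csf2: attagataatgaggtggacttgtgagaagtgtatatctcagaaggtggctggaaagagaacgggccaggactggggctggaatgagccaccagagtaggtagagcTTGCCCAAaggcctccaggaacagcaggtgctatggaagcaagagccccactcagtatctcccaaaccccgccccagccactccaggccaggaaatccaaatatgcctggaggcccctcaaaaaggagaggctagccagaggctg
Il1a: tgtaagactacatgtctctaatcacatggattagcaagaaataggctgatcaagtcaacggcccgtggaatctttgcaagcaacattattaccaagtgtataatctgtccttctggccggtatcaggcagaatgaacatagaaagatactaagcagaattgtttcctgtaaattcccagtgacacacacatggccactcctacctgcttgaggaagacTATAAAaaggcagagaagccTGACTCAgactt
Lif: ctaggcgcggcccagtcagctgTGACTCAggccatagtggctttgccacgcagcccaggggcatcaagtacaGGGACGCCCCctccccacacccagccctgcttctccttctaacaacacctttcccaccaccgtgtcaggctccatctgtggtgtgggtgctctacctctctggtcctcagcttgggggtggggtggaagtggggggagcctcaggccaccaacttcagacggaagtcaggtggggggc

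The upstream window of Il6 held 4 of the 6 motifs: AP-1 from base -249 to -243, counted back from the start site, a short CRE motif from -135 to -131, C/EBP from -128 to -121 and the NF-kB consensus from -44 to -35. That of Csf1 held the NF-kB consensus alone, from -154 to -145. Csf2 held C/EBP from -145 to -138. Il1a held a TATA box from -32 to -27 and AP-1 from -12 to -6, and Lif held AP-1 from -228 to -222 and the NF-kB consensus from -178 to -169. No match was found in the outer window of Il11, while its inner window held AP-1 from -98 to -92. Il33 has an outer window with a TATA box from -203 to -198 and an inner one with C/EBP from -85 to -78 and a TATA box from -29 to -24. Among all 32851 windows of this length, 6.75% held AP-1, 9.56% C/EBP, 7.25% the NF-kB consensus, 12.4% a TATA box, 17.8% the short CRE motif and 6.91% the ETS motif. These matches are letters in a window and do not show that a factor was bound. Peaks covered all 250 bases of the windows of Il6, Csf1, Csf2, Il1a and the outer window of Il33, 193 bases of the inner window of Il33 and 157 of that of Lif. Neither window of Il11 was covered. Promoter sequences of Csf3, Ccl2 and Ccl7 were not used here.

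Total counts in peaks ran from 968296 (7160c2) to 7369228 (6419c1) per library, and 1 read was worth 0.997 CPM in the shallowest library. Levels are in CPM, which sets the reads of a peak against the TMM-scaled reads in all tested peaks. Peaks within 1 kb of either end of the gene record were found for 8 of 8 epithelial markers (Epcam, Cdh1, Sox9, Cldn4 and the keratins Krt7, Krt8, Krt18 and Krt19), with summed levels of 206 to 395 CPM in T cell high and 235 to 344 CPM in T cell low clones. Of 10 pan-leukocyte markers 6 had such a peak, with 47.2 to 98 against 77.9 to 117 CPM. Of 11 macrophage and monocyte markers 4 had one (42.3 to 59.3 against 39.2 to 94.9 CPM), and Csf1r, Adgre1, Mrc1, Lyz2, C1qa, C1qb and Tyrobp had none. Of the neutrophil markers 2 of 7 (4.99 to 10.9 against 4.33 to 16.4 CPM), of the 7 T cell markers with a gene record (of 9 listed) 1 (5.18 to 14.3 against 4.28 to 18.4 CPM), of the fibroblast markers 1 of 8 (19.9 to 34.4 against 16.8 to 37.9 CPM) and of the endothelial markers 0 of 6 had a peak. The group ranges overlapped in every list with a peak, and the share of these cells in any cytokine signal was not tested. A peak so close to a marker can also belong to a neighbouring gene, which was not examined. In bulk chromatin a site that is open in fewer cells and one that is less open in each cell cannot be told apart.

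No cytokine peak separated the groups beyond the spread between clones. Of the 49 peaks, 45 had enough reads to be tested and 0 had an adjusted p under 0.05 (edgeR's quasi-likelihood test with Benjamini-Hochberg adjustment over 59252 peaks, smallest adjusted p = 0.686), where 0% of all tested peaks were called. DESeq2 and limma-voom also called 0 of them. An unadjusted p under 0.05 was reached by 1 peak of 45, or 2.22%, against 6.83% of all tested peaks. At none of the 45 were the 2 groups of clones fully apart, which was so at 0.162% of all peaks. The log2 fold change of T cell high over T cell low was above 0 at 18 and below 0 at 27 peaks, with a median of -0.11 beside 0.01 over all peaks. With the regional level of nearby peaks as an offset, described below for Csf1, 23 were above 0 and 22 below, with a median of 0.0059 beside 0.0070, and the 5 peaks that turned were at Csf1 (3), Csf3 (1) and Lif (1). The members' median size of change, 0.26, was near that of all peaks, 0.27. The spread between clones was also like the rest, with a median SD of log2 CPM of 0.66 for these peaks and for all. When the counts of all peaks of a gene were summed, 3 genes had a log2 fold change above 0 and 7 below 0, and 0 of the 10 passed (edgeR adjusted p from 0.777 to 0.999), where 0.0119% of 16824 genes were called. None of the 10 had an unadjusted p under 0.05, a level that 6.63% of all genes reached.

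**Figure D1:**
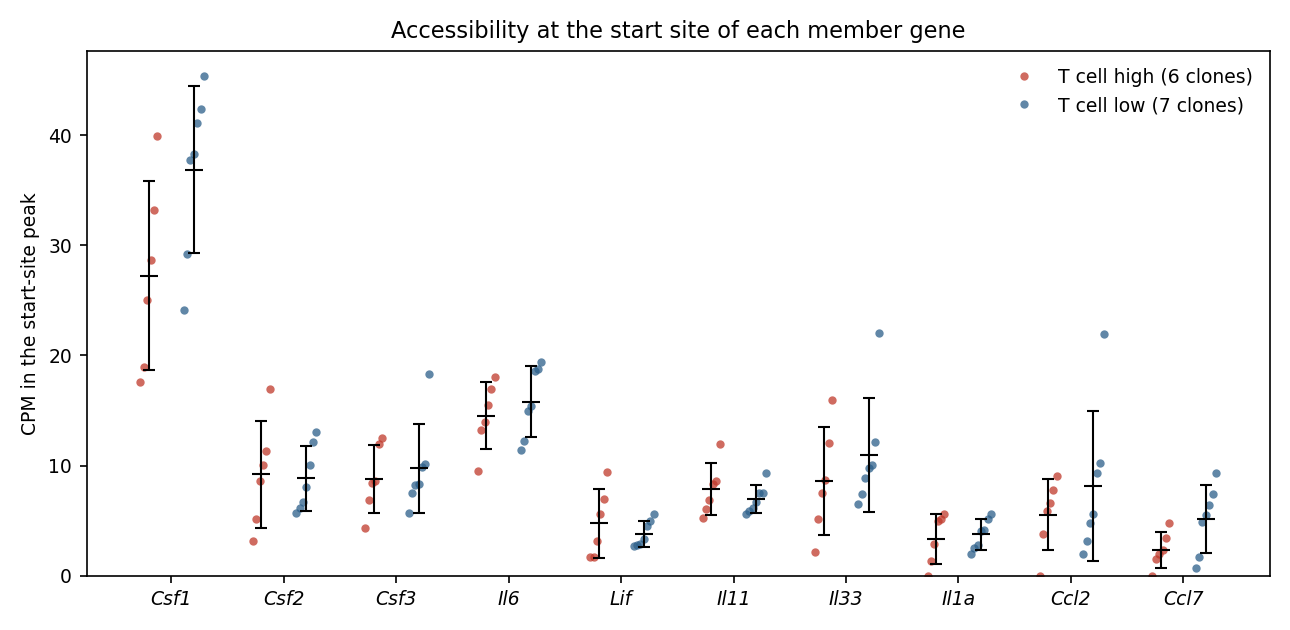
Accessibility (CPM, vertical axis) of the start-site peak of each of the 10 genes, with 1 point per clone, the T cell high clones in red and the T cell low clones in blue, and bars for the mean ± SD of 6 and 7 clones. The groups overlap at every gene, and Csf1 has the highest values, 17.6 to 45.4 CPM. For Il11 the point is the peak nearest a promoter window, and for Csf3, Ccl2 and Ccl7 the peak that spans an end of the gene record.

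The start-site peaks had log2 fold changes above 0 at 3 genes and below 0 at 7, with unadjusted p from 0.0838 to 0.891 (edgeR). With the regional offset these counts were still 3 and 7, and the median was -0.14 where it was -0.16 without. To compare genes, levels were divided by peak length. Csf1 stood first at 30.6 ± 8.66 CPM per kb (SD, 13 clones) and exceeded the next gene, Il6, in 13 of 13 clones. Il6 had 13 ± 2.64 CPM per kb (SD, 13 clones) and was above Lif, at 12.1 ± 6.37, in 9 clones. Below them came Ccl2 at 9.98 ± 7.80, Csf2 at 8.82 ± 3.71, Il33 at 7.64 ± 3.88, Il11 at 6.95 ± 1.75, Csf3 at 6.46 ± 2.46, Ccl7 at 6.29 ± 4.6 and Il1a at 6.06 ± 3.05 CPM per kb (SD, 13 clones). From Il6 downwards each gene differed from the next by less than the SD of either, and was above it in 6 to 9 of 13 clones.

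Csf1 had the most accessible start site of the 10 and the peak with the smallest p, though none of its peaks passed. It encodes the factor on which most tissue macrophages depend. The gene (chr3:107741048-107760469) had 9 peaks, 3 of them in the gene body. The start-site peak (chr3:107759751-107760809), which covers the window printed above, ranged from 17.6 to 39.97 CPM (median 26.9) in T cell high and from 24.1 to 45.4 CPM (median 38.3) in T cell low clones. The means were 27.3 ± 8.55 (SD, 6 clones) and 36.9 ± 7.57 CPM (SD, 7 clones), which gave a log2 fold change of -0.42 (SE 0.23) that did not pass (edgeR adjusted p = 0.772). Without 2838c3 it was -0.56 and without 6499c3 -0.51. In these 2 fits its unadjusted p was under 0.05, as were those of 6372 and 3753 peaks in all. The groups overlapped: 2838c3, a T cell high clone, reached 39.97 CPM, while the T cell low clone 6499c3 had 24.1 CPM. This peak was the highest of the locus.

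With every library, the only one of the 45 peaks with an unadjusted p under 0.05 lay inside Csf1 at chr3:107743091-107744085. This is towards the far end of the gene from its start site. It ranged from 2.58 to 9.97 CPM (median 3.66) in T cell high and from 4.87 to 21.5 CPM (median 8.49) in T cell low clones. Of the T cell high clones 4 lay below every T cell low clone, and 6421c2 at 7.14 and 7160c2 at 9.97 CPM lay among them. The means were 5 ± 2.93 (SD, 6 clones) and 10.5 ± 6.79 CPM (SD, 7 clones), with 6556c3 at 21.5 and 6419c1 at 18.7 CPM the highest of the T cell low group. The log2 fold change was -1.12 (SE 0.46, edgeR adjusted p = 0.686), and leaving out 1 library moved it between -1.37 and -0.89. With 6499c4, 6419c1 or 6556c3 left out, its unadjusted p was no longer under 0.05.

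The wider neighbourhood of Csf1 was also lower on average in T cell high clones. Tested peaks within 2 Mb, leaving out those within 20 kb, had a regional log2 level of -0.10 on average in T cell high and 0.18 in T cell low clones, each relative to the mean of all clones, a difference of -0.28. With this regional level as an offset the intragenic peak had a log2 fold change of -0.85 and the start-site peak one of -0.19, and neither had an unadjusted p under 0.05. The sum over all 9 peaks was 96.7 ± 25.9 CPM (SD, 6 clones) in T cell high and 121 ± 30.3 CPM (SD, 7 clones) in T cell low clones. This gave a log2 fold change of -0.31 (SE 0.20, edgeR adjusted p = 0.777), and -0.06 with the offset. Of the 8 tested peaks, 6 had a negative and 2 a positive log2 fold change, and with the offset 3 were negative and 5 positive. The 4 peaks upstream of the start site ranged from -0.50 to 0.09, and from -0.27 to 0.36 with the offset. The lowest of these (chr3:107766545-107767284) was at -0.89 without 6421c2. In that fit its unadjusted p was under 0.05, as were those of 4526 peaks in all.

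**Figure D2:**
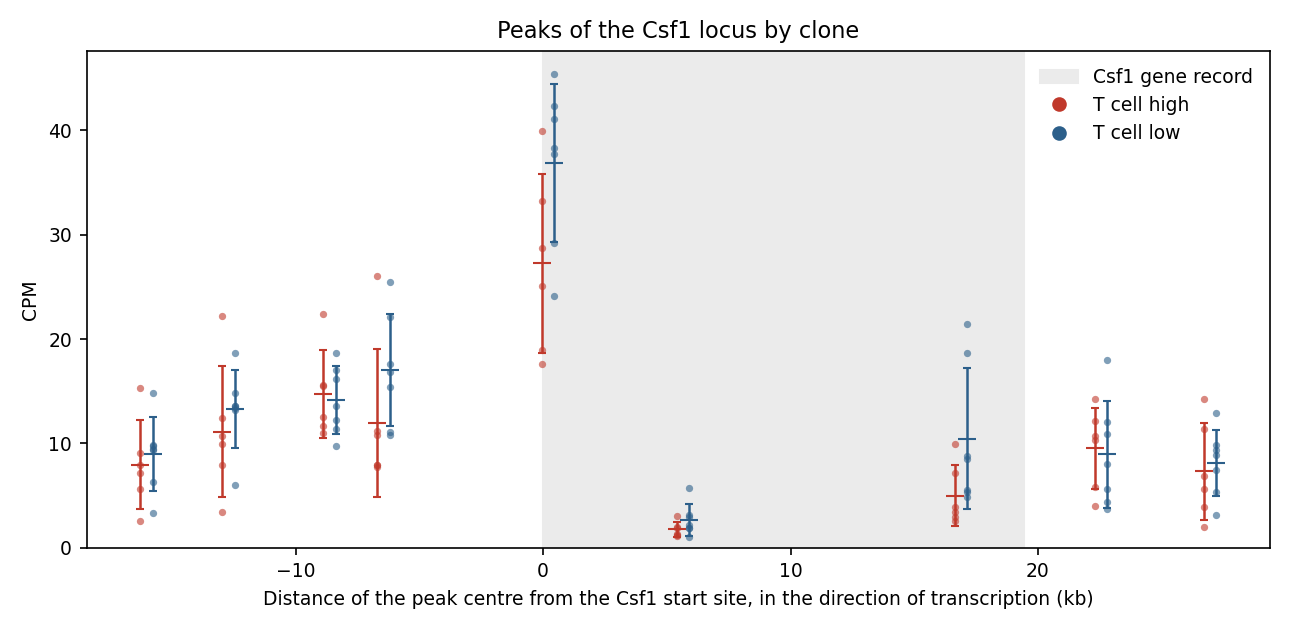
CPM of each clone (points) at the 9 peaks of the Csf1 locus by distance of the peak centre from the start site in kb, positive in the direction of transcription, with the mean ± SD of the T cell high (red) and T cell low (blue) clones drawn side by side and the gene record shaded. The start-site peak is the highest, at 27.3 against 36.9 CPM, and the peak near the far end of the gene has 5 against 10.5 CPM with overlapping groups.

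Csf2, which encodes GM-CSF and lies beside Il3, had among the lowest sums of the 10. The gene (chr11:54247270-54249899) had 3 peaks. At the start-site peak (chr11:54249219-54250239) the T cell high clones had 3.10 to 17 CPM (median 9.35) and the T cell low clones 5.71 to 13.1 CPM (median 8.04), and the T cell low range lay inside the T cell high one. Its log2 fold change was 0.05 (SE 0.39, edgeR adjusted p = 0.988). The locus sum was 20.9 ± 10.8 CPM (SD, 6 clones) against 15.5 ± 5.04 CPM (SD, 7 clones), which gave a log2 fold change of 0.44 (SE 0.37, edgeR adjusted p = 0.842) and of 0.22 without 6555c3. Clones differed 7.82-fold in this sum, from 4.35 CPM in 6421c2 to 34.0 CPM in 6555c3, both T cell high. Much of the span came from a peak 9873 bp from the gene (chr11:54236852-54237397), at 24.5 CPM in 6555c3, 0 to 8.20 CPM in the other T cell high and 1.34 to 8.04 CPM in the T cell low clones. The count was 0 in 6421c2, which allows up to 0.931 CPM (3 counts). The log2 fold change there was 0.70 (SE 0.62, edgeR adjusted p = 0.869), and -0.05 without 6555c3. The remaining peak, on the other side of the gene (chr11:54254081-54254427), had 1.24 to 5.98 CPM in T cell high and 0.335 to 2.47 CPM in T cell low clones and was left out by the filter on low counts.

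Csf3, which encodes G-CSF, the main growth factor of neutrophils, had 4 peaks, of which only 1 was nearest to Csf3 itself. That peak (chr11:98699470-98700908) spans an end of the gene record (chr11:98700183-98703631). The T cell high clones had 4.32 to 12.5 CPM (median 8.50) and the T cell low clones 5.70 to 18.3 CPM (median 8.35), so the medians nearly coincided. The fitted log2 fold change was -0.18 (SE 0.36, edgeR adjusted p = 0.954). It was -0.0085 with the regional offset and 0.055 without 6422c1. The highest value, 18.3 CPM in 6422c1, stood apart from the next T cell low clone at 10.1 CPM. Of the 3 neighbouring peaks, 2 had more reads. One within Psmd3, a proteasome subunit gene (chr11:98681929-98683049), had 26.7 to 49.9 against 22.9 to 46.3 CPM. One within Med24, a Mediator subunit gene (chr11:98708520-98709869), had 16.4 to 22.6 against 15.4 to 35.3 CPM and a log2 fold change of -0.39 (SE 0.24, edgeR adjusted p = 0.808), or -0.18 with the regional offset. Without 6499c3 this was -0.50 with an unadjusted p under 0.05, a level that 3753 peaks in all reached in that fit. The remaining one (chr11:98710333-98710778), also in Med24, was weaker, at 1.86 to 6.45 against 1.85 to 11.3 CPM. Peaks nearer another gene gave 87.1% of the Csf3 sum, which was 66.5 ± 12.4 (SD, 6 clones) against 76.6 ± 14.5 CPM (SD, 7 clones).

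Il6, which encodes the inflammatory cytokine interleukin 6, had a single peak, and it was among the steadiest across clones. The peak (chr5:30012672-30013838) covers the upstream window printed above, with its AP-1, C/EBP, CRE and NF-kB letters, and the beginning of the gene (chr5:30013114-30019975). The T cell high clones had 9.50 to 18 CPM (median 14.7) and the T cell low clones 11.4 to 19.4 CPM (median 15.4). All 13 clones thus had reads there, within a 2.04-fold range. The means were 14.5 ± 3.04 (SD, 6 clones) and 15.8 ± 3.23 CPM (SD, 7 clones), and the log2 fold change was -0.13 (SE 0.27, edgeR adjusted p = 0.956).

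Lif, which encodes leukemia inhibitory factor, had 6 peaks, 5 of them in the gene body (chr11:4257568-4272514). The peak over its promoter window (chr11:4257124-4257474) ends 94 bp from the gene record. It had 1.72 to 9.45 CPM (median 4.33) in T cell high and 2.72 to 5.60 CPM (median 3.35) in T cell low clones, and 6499c4 was the highest. The log2 fold change of 0.36 (SE 0.46, edgeR adjusted p = 0.916) was the opposite in sign to the other 5, which ranged from -0.55 to -0.13, and was -0.012 without 6499c4. The peak with the smallest p (chr11:4261154-4261684) had 1.06 to 9.97 CPM in T cell high and 4.69 to 18.8 CPM in T cell low clones, with 2838c3 lowest and 2699c4 highest. Its log2 fold change was -0.55 (SE 0.45, edgeR adjusted p = 0.851). The most accessible peak (chr11:4266391-4267139) had 6.05 to 12 against 4.33 to 21.4 CPM. The locus sum was 40.3 ± 14.5 (SD, 6 clones) against 48.4 ± 10.1 CPM (SD, 7 clones), which gave a log2 fold change of -0.28 (SE 0.23) and -0.10 with the regional offset. The regional level around Lif was on average -0.09 in T cell high and 0.14 in T cell low clones. These groups overlapped, from -0.53 (6620c1) to 0.14 (6499c4) and from -0.21 (6422c1) to 0.45 (2699c4).

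Il11, which encodes a cytokine of the same family known for its part in fibrosis, had 4 peaks, of which 1 was nearest to it. This peak (chr7:4776475-4777533) lies in the gene body (chr7:4772373-4782907) and overlaps neither promoter window. It had 5.28 to 12 CPM (median 7.60) in T cell high and 5.57 to 9.35 CPM (median 6.70) in T cell low clones. The groups overlapped almost fully, and the log2 fold change was 0.16 (SE 0.34, edgeR adjusted p = 0.958). Peaks nearer another gene gave 88.3% of the sum, led by the promoter peak of Tmem238 (chr7:4788625-4789968) at 17.5 to 41.6 against 21.7 to 40.2 CPM, and by that of the ribosomal protein gene Rpl28 (chr7:4792375-4793245) at 20.9 to 40.9 against 6.53 to 36.2 CPM. The sum was 61.2 ± 12.3 (SD, 6 clones) against 64.8 ± 15.2 CPM (SD, 7 clones). A weak peak (chr7:4795947-4796325) with 0.794 to 2.99 CPM in T cell high and 2.75 to 5.56 CPM in T cell low clones was left out by the filter on low counts.

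**Figure D3:**
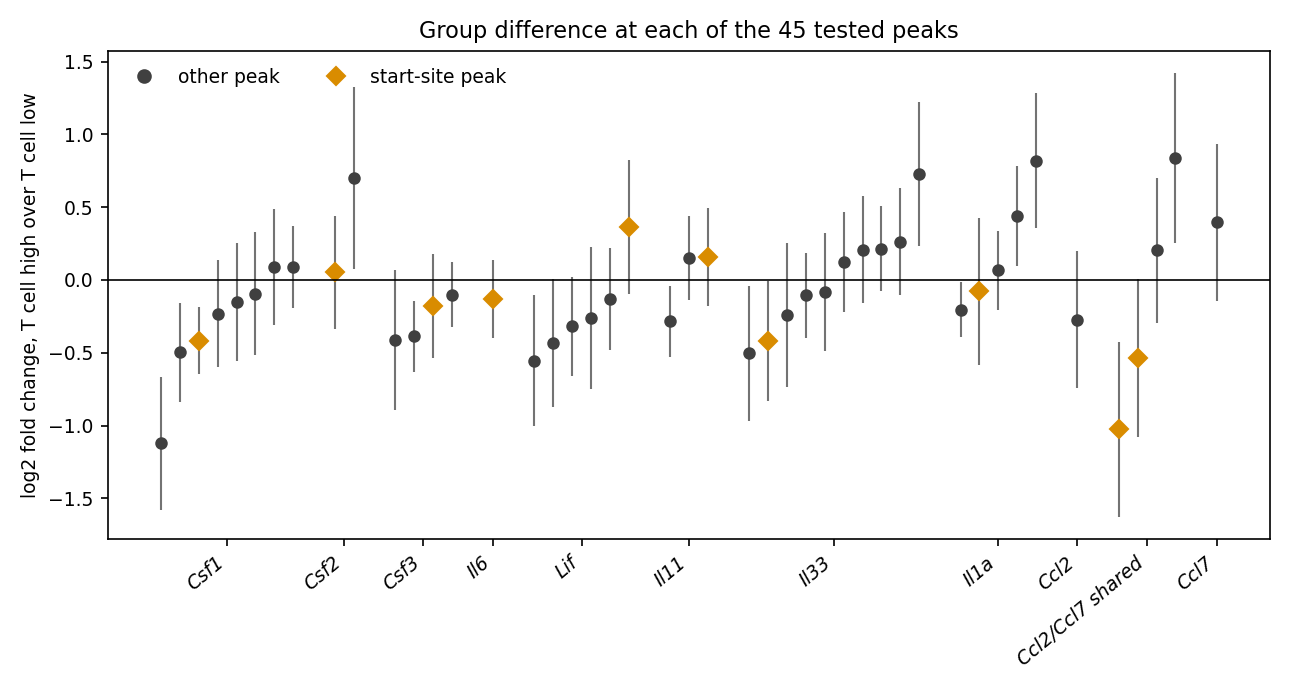
Log2 fold change of T cell high over T cell low (vertical axis, bars for 1 SE from edgeR) at each of the 45 tested peaks, ordered within each gene. Orange diamonds are start-site peaks and grey circles other peaks. Values lie on both sides of 0 at most genes, from -1.12 at a peak inside Csf1 to 0.84 at a peak shared by Ccl2 and Ccl7.

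Il33, which encodes a nuclear alarmin of epithelial cells, had the most peaks, 10, with 8 in the gene body (chr19:29925113-29960718), and 5 had a log2 fold change of each sign. The outer start-site peak (chr19:29924142-29925432) had 2.12 to 16 CPM (median 8.08) in T cell high and 6.53 to 22.0 CPM (median 9.75) in T cell low clones. 2838c3 was the lowest and 6419c5 the highest, and the log2 fold change was -0.42 (SE 0.41, edgeR adjusted p = 0.885). A peak at the inner promoter window (chr19:29945597-29945874) varied little, with 5.16 to 9.07 against 3.73 to 8.38 CPM. The most accessible peak of the gene was neither of these but an internal one (chr19:29942265-29943132), with 18.9 to 63.2 CPM (median 43.4) in T cell high and 13.1 to 52.8 CPM (median 39.7) in T cell low clones. There 6555c3 and 6620c1 were highest and 6556c3 lowest, and the log2 fold change was 0.21 (SE 0.29, edgeR adjusted p = 0.924). A peak at the far end of the gene (chr19:29960364-29960982) had 1.06 to 11.2 CPM in T cell high and 0.696 to 8.25 CPM in T cell low clones. In the T cell high group 2838c3 alone was at 1.06 CPM and the other 5 clones had at least 7.63 CPM. The resulting log2 fold change was 0.73 (SE 0.49, edgeR adjusted p = 0.818), and 0.97 without 2838c3. In that fit its unadjusted p was under 0.05, as were those of 6372 peaks in all, against 4046 with every library. The locus sum was 125 ± 25 (SD, 6 clones) against 117 ± 29.7 CPM (SD, 7 clones), which gave a log2 fold change of 0.08 (SE 0.18).

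Il1a, which encodes interleukin 1 alpha, had a weak start-site peak amid stronger neighbours. The start-site peak (chr2:129309866-129310451), which covers the window with the TATA box and AP-1 letters, had 0 to 5.59 CPM (median 3.94) in T cell high and 2.01 to 5.60 CPM (median 4.08) in T cell low clones. The count of 0 was in 7160c2, the shallowest library, and allows up to 2.99 CPM (3 counts). The groups did not differ beyond their spread (log2 fold change -0.08, SE 0.50, edgeR adjusted p = 0.986). The highest peak, at the promoter of Ckap2l, a mitotic spindle gene (chr2:129296806-129297918), had 39.5 to 53.1 against 39.2 to 72.7 CPM and belongs to that gene's record. A peak 11817 bp from Il1a (chr2:129322003-129322538) had 2.38 to 19.9 CPM (median 10.2) in T cell high and 1.39 to 10.5 CPM (median 7.04) in T cell low clones, with 6421c2 and 6555c3 highest and 2838c3 the lowest T cell high clone. Its log2 fold change was 0.82 (SE 0.47, edgeR adjusted p = 0.778), and 1.03 without 2838c3. In that fit its unadjusted p was under 0.05, as were those of 6372 peaks in all. The locus sum was 114 ± 19.3 (SD, 6 clones) against 111 ± 29.6 CPM (SD, 7 clones), which gave a log2 fold change of 0.02 (SE 0.18). Of this sum the Ckap2l peak gave 44.7% and the Il1a start-site peak 3.16%.

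Ccl2 and Ccl7 are neighbours on chromosome 11 and share 4 of their 5 peaks each, so their sums are not independent. Together with Csf2 they varied the most between clones. The Ccl2 sum ranged from 14.3 to 68.8 CPM (median 30.0) in T cell high and from 9.05 to 74.9 CPM (median 37.1) in T cell low clones, an 8.28-fold range. The clone 6419c1 was highest, 2838c3 next and 6499c3 lowest, so both groups held high and low clones. The log2 fold change was -0.16 (SE 0.37, edgeR adjusted p = 0.956) for the Ccl2 sum and -0.01 (SE 0.37, edgeR adjusted p = 0.999) for that of Ccl7. With each clone left out in turn, these ranged from -0.53 to 0.13 for Ccl2 and from -0.38 to 0.24 for Ccl7, so neither sum had a stable sign.

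The peak over the beginning of the Ccl2 record (chr11:82035143-82035837) had 0 to 9.03 CPM (median 6.26) in T cell high and 2.01 to 22.0 CPM (median 5.56) in T cell low clones. 6419c1 stood alone at 22.0 CPM, with the next clone at 10.3, and 7160c2 had no read, which allows up to 2.99 CPM. The difference on the log2 scale was -0.54 (SE 0.54, edgeR adjusted p = 0.889), and 0.0028 without 6419c1. The peak over the beginning of the Ccl7 record (chr11:82045476-82046086) had 0 to 4.76 CPM (median 2.16) in T cell high and 0.679 to 9.33 CPM (median 5.50) in T cell low clones. Of the T cell low clones 5 were above every T cell high clone, and 6422c1 and 6499c3 lay among these. Its log2 fold change was -1.02 (SE 0.60, edgeR adjusted p = 0.787), -1.38 without 2838c3 and -1.23 without 6422c1. In these 2 fits its unadjusted p was under 0.05, as were those of 6372 and 3697 peaks in all. The 2 peaks just before the Ccl2 record had positive log2 fold changes, of 0.84 (SE 0.59) at chr11:82032183-82032536 and 0.20 (SE 0.50) at chr11:82032624-82033474. At the latter, the highest of the Ccl7 set, 2838c3 had 23.8 and 6419c1 19.1 CPM while the lowest, 6499c3, had 1.34 CPM. The most accessible Ccl2 peak (chr11:82014943-82015688, 19889 bp from the gene) showed 2838c3 at 25.7 CPM, 6419c1 at 21.4 and 6556c3 at 20.5 CPM, against 3.32 to 12.2 CPM in the other 10 clones.

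**Figure D4:**
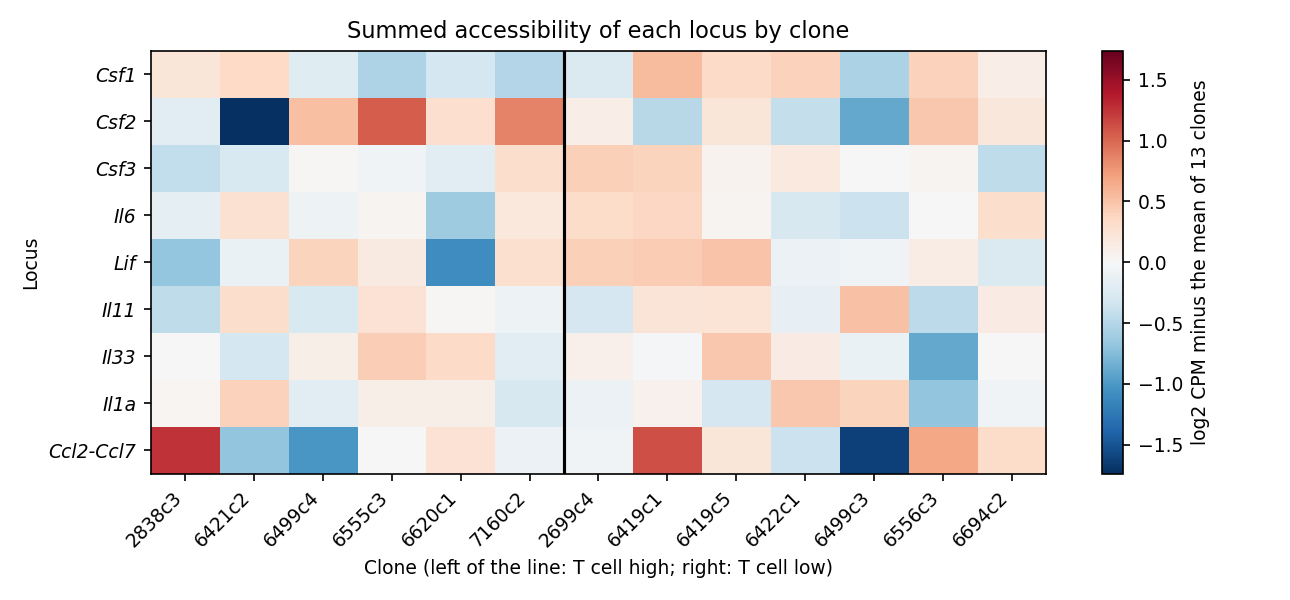
Log2 CPM of each locus in each clone minus the mean of the 13 clones (colour, red above and blue below the mean), with T cell high clones left of the line and T cell low clones right of it, and Ccl2 and Ccl7 joined as 1 locus. High and low clones occur on both sides of the line, most widely at Csf2 and Ccl2-Ccl7, where the SD over clones is 0.75 and 0.81.

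No pair of loci had a relation across clones that passed correction. With Ccl2 and Ccl7 joined there were 9 loci and 36 pairs, and 0 pairs had a permutation p under 0.05 after Benjamini-Hochberg adjustment. Among the sums, the smallest p was that of Csf3 with Lif (Pearson r = 0.70, permutation p = 0.00677, adjusted p = 0.219, and Spearman rho = 0.77, permutation p = 0.0026, adjusted p = 0.0936, over 13 clones). Both genes lie on chromosome 11, and r was 0.62 without the 2 clones farthest from the Csf3 median, 0.53 after the regional levels were subtracted and 0.04 between the start-site peaks. Within groups it was 0.68 in T cell high and 0.72 in T cell low clones. Csf2 and Il1a ran opposite (r = -0.65, permutation p = 0.0174, and rho = -0.59, permutation p = 0.0384), and r was -0.45 without the 2 farthest clones, while Il6 and Lif ran together (r = 0.64, permutation p = 0.0182, and rho = 0.48, permutation p = 0.0962) with 0.35 without the 2 farthest. Both had an adjusted p of 0.219 for r, and of 0.691 and 0.705 for rho. After the regional levels were subtracted, r was -0.42 for Csf2 with Il1a and 0.51 for Il6 with Lif. With this subtraction 0 of the 36 pairs had an unadjusted permutation p under 0.05 for r. For rho, Csf3 with Il33 had one (rho = 0.59, permutation p = 0.0392, adjusted p = 0.555). Peaks nearer another gene gave 87.1% of the Csf3 sum and 44.7% of the Il1a sum. Between start-site peaks 5 pairs had an unadjusted permutation p under 0.05 for r, none of them among the 3 pairs of sums, and 0 passed correction. The highest r was that of Il1a with Ccl2-Ccl7 (r = 0.73, permutation p = 0.0153, adjusted p = 0.301, and rho = 0.49, permutation p = 0.0896, adjusted p = 0.740), with 0.44 without the 2 clones farthest from the Il1a median, while their sums had r = -0.41. The start-site peaks of Il1a and of Ccl2 both had a count of 0 in 7160c2, the shallowest library. The other 4 pairs were Csf2 with Lif (r = 0.60, rho = 0.63), Csf2 with Il11 (r = 0.59, rho = 0.48), Csf1 with Ccl2-Ccl7 (r = 0.58, rho = 0.53) and Il11 with Il1a (r = -0.56, rho = -0.29). In this order, r was 0.61, 0.15, 0.68 and 0.09 without the 2 clones farthest from the median of the first locus. That of Il11 with Il1a thus changed sign.

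Clones with the same number in their names were compared over the 49 peaks. 6419c1 and 6419c5, both T cell low, had the smallest median difference of all 78 pairs of clones, 0.32 on the log2 scale. 6499c4 (T cell high) and 6499c3 (T cell low) ranked 12 of 78 with 0.48. The labels do not say what the number stands for.

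No gene of the related pathway lists passed either. Among 31 tested related ligands of 32 listed, 0 passed, 13 had a summed log2 fold change above 0 and 18 below, with a median of -0.06 beside -0.03 over all genes. An unadjusted p under 0.05 was reached by 3 of these 31, 1 of the 14 receptors and 2 of the 16 signalling genes below, where 6.63% of all gene sums reached it. They are named by this p, and such counts say nothing particular of the lists. The sums of listed genes add all peaks within 20 kb, so they can hold peaks nearer another gene, whose share is not given here. Il18, an IL-1 family cytokine, had 42.1 to 139 CPM (median 97.0) in T cell high and 47.6 to 83.6 CPM (median 64.0) in T cell low clones, with a log2 difference of 0.50 (SE 0.22) and 0.22 with the regional offset. Tslp, an epithelial cytokine, had 19.9 to 34.8 (median 27.9) against 33.5 to 44.8 CPM (median 39.9), a log2 fold change of -0.49 (SE 0.20), or -0.30 with the offset. Thpo, which encodes thrombopoietin, had 116 to 161 (median 130) against 117 to 287 CPM (median 168), a log2 fold change of -0.43 (SE 0.18), or -0.23 with the offset. These 3 genes each had an edgeR adjusted p of 0.716, and with the offset none had an unadjusted p under 0.05. Il34, the other ligand of the Csf1 receptor and the highest sum of the list, had 222 ± 72.6 (SD, 6 clones) against 233 ± 55.6 CPM (SD, 7 clones), which gave a log2 fold change of -0.06.

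Of the 16 receptors of these cytokines 14 were tested, 6 had a log2 fold change above 0 and 8 below, and 0 passed. The receptor with an unadjusted p under 0.05 was Csf2rb, the shared signalling chain for GM-CSF, with a single peak of 0.621 to 3.99 CPM (median 2.29) in T cell high and 2.78 to 12.3 CPM (median 4.76) in T cell low clones. Here the log2 fold change was -1.54 (SE 0.50, edgeR adjusted p = 0.621), and -1.33 with the regional offset, when its unadjusted p was still under 0.05. Csf2rb is a gene of myeloid cells, and the pan-leukocyte markers, whose ranges are given above, had 79.7 ± 17.5 (SD, 6 clones) against 94.6 ± 15.7 CPM (SD, 7 clones). Their part in this value was not tested. Il6ra, the receptor of interleukin 6, had the highest sum, 148 ± 41.7 (SD, 6 clones) against 166 ± 26.6 CPM (SD, 7 clones).

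All 16 genes for processing, signalling and restraint of these cytokines were tested, 5 had a log2 fold change above 0 and 11 below, 2 had an unadjusted p under 0.05 and 0 passed. Capn1, a calpain protease, had 23.7 to 48.4 (median 34.6) against 39.6 to 70.9 CPM (median 49.4), a log2 fold change of -0.52 (SE 0.21, edgeR adjusted p = 0.716), or -0.42 with the regional offset. With that offset its unadjusted p was still under 0.05. Jak1, the kinase of gp130 receptors, had 122 to 179 (median 143) against 108 to 143 CPM (median 120), a log2 fold change of 0.30 (SE 0.14, edgeR adjusted p = 0.742) and -0.03 with the regional offset, when its unadjusted p was not under 0.05. Zfp36, whose protein speeds the decay of cytokine mRNAs, had the highest sum, 238 ± 22.3 (SD, 6 clones) against 242 ± 69.4 CPM (SD, 7 clones).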

How the data were processed

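ATAC-seq reads were counted in merged peaks for 13 clones. The deposited values are whole-number read counts per peak, not normalized, made with featureCounts 1.5.3 per the file headers. Per the submitters' processing notes, mm10 was the genome build and DESeq2 a tool of the authors. How reads were aligned, how peaks were called and whether reads were shifted for the transposase is not given in the sources used here. Reads rather than fragments were counted, so both ends of a fragment can fall in 1 peak, and limits for a count of 0 cover counting error only. Replicate numbers were given in accession order and do not pair clones. The p-values of the group tests set the difference between groups against the variation between libraries within them. With 1 library per clone, variation between clones and between libraries cannot be told apart.

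Gene bodies were the RefSeq gene records of GRCm38.p6 (21887 protein-coding). The start-site peak overlaps the RefSeq promoter window, or otherwise spans an end of the gene record or lies nearest a window. Whether peaks lie in exons or introns was not analysed here. Gene sums add all peaks within 20 kb. Counts were filtered with filterByExpr, scaled by TMM and tested two-sided with edgeR 4.0.16 (quasi-likelihood, Benjamini-Hochberg at 0.05, R 4.3.3), with limma 3.58.1 (voom) and DESeq2 1.42.0 as alternatives. The code was tested on simulated data. Log2 CPM used a prior count of 2. Marker lists used peaks within 1 kb of either end of a gene record, a rule set after the data were seen. Pairs of loci used 100000 permutations, two-sided. Each member's start-site peak, most accessible peak and peak with the smallest p are named, and from each pathway list the genes with an unadjusted p under 0.05 and the one with the highest sum. The members and lists were chosen with earlier results of these data known. Other alternatives were another scaling, no filter, each library left out, a regional offset, the 6419 clones summed, and other windows.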

Additional observations from a re-analysis of the deposited data

Results flagged for a closer look

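Within each group, the highest or lowest clone was set against the spread of the others for the 10 gene sums and the named peaks. Of 66 groups examined 8 had a clone far from the rest, or 12.1%. A chance share of about 1 in 20 holds for normally distributed values, and none was computed for CPM, so an excess cannot be read from this. The groups are not independent, because sums contain peaks and Ccl2 and Ccl7 share peaks.

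Ccl2 gave 4 of the 8. In T cell high, 2838c3 had a Ccl2 sum of 68.8 CPM where the next clone had 34.5, with 25.7 CPM at the peak chr11:82014943-82015688 (next 11) and 23.8 CPM at chr11:82032624-82033474 (next 10.3). In T cell low, 6419c1 had 22.0 CPM at the Ccl2 start-site peak, and the next clone 10.3. At the Csf2 peak chr11:54236852-54237397, 6555c3 had 24.5 CPM and the next T cell high clone 8.20. At the Csf3 start-site peak, 6422c1 had 18.3 CPM and the next T cell low clone 10.1. At the outer Il33 start-site peak, 6419c5 had 22.0 CPM and the next T cell low clone 12.1. At the Il33 peak chr19:29960364-29960982, 2838c3 was low, at 1.06 CPM, and the next T cell high clone had 7.63.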

How the results depend on the processing

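The count of cytokine peaks with an adjusted p under 0.05 stayed at 0 under every alternative run on peaks. Over all tested peaks DESeq2 called 47 where edgeR called 0, and leaving out 1 library gave 0 to 42, the 42 without 2838c3. Over all tested peaks 4046 had an unadjusted p under 0.05, with 5003 without the filter on low counts and 3656 with the regional offset. With 1 library left out they numbered 3105 to 6372, the 6372 without 2838c3. For gene sums edgeR called 2 genes, DESeq2 15, limma-voom 0, the regional offset 0, the 6419 clones summed, the nearest gene only and windows of 0, 5 and 50 kb 1 each, and leaving out 1 library 0 to 13, the 13 without 2838c3. The 1 cytokine peak with an unadjusted p under 0.05 became 3 without the filter on low counts, 0 with the regional offset, 5 in windows of 50 kb and 0 to 5 with 1 library left out. Of these the 3 are the Csf1 peak and the unfiltered weak peaks of Csf2 and Il11. The 5 with a library left out arose without 2838c3, as did the 6372 over all peaks. Apart from the fewer or more peaks and samples that each setting holds by construction, the cause was not tested.

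The log2 fold changes that changed sign were all of uncalled values, and those of named peaks and sums follow. With windows they were 0.23 for the Il6 sum (50 kb), 0.16 for the Il11 sum (0 and 5 kb, and also nearest gene only), -0.067 and -0.20 for the Il1a sum (0 and 5 kb) and 0.068 for the Ccl2 sum (5 kb). With the 6419 clones summed they were -0.024 for the Il1a sum and 0.025 for the Ccl7 sum. With limma-voom the Csf2 peak chr11:54236852-54237397 was at -0.30, and with the regional offset the Psmd3 peak of Csf3 (chr11:98681929-98683049) was at 0.13. The offset also turned 3 Csf1 peaks (to 0.11, 0.0059 and 0.056) and 1 Lif peak (to 0.043) above 0. With 1 library left out, the ranges that crossed 0 were -0.53 to 0.13 (Ccl2 sum), -0.73 to 0.0028 (Ccl2 start site), -0.38 to 0.24 (Ccl7 sum), -0.28 to 0.55 (Ccl7 peak chr11:82032624-82033474), -0.051 to 0.98 (Csf2 peak chr11:54236852-54237397), -0.17 to 0.24 (Csf2 start site), -0.32 to 0.055 (Csf3 start site), -0.059 to 0.115 (Il1a sum), -0.26 to 0.094 (Il1a start site), -0.017 to 0.175 (Il33 sum) and -0.012 to 0.52 (Lif start site). The Lif start site fell under the filter on low counts with 2699c4, 6556c3 or 6694c2 left out, and the Ccl7 start site with 2699c4 or 6419c1 left out, so these gave no value. No paired analysis was possible because the labels give no replicate numbers and the groups share only 1 clone number, that of 6499c4 and 6499c3. In the shallowest library 1 read is worth 0.997 CPM, which limits weak peaks.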
